A study of Drosophila melanogaster with 25 samples.

Results

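The extracellular Toll cascade of Drosophila melanogaster is represented here by 9 genes of the 17208 in the count tables: ndl, gd, snk, ea, psh, Hayan, SPE, spz and Tl. They were taken by gene symbol, and all 9 were found. Of these, ea and SPE were chosen by their measured levels, which had been seen to change in these same libraries. Their values are therefore described without a test in every comparison, and tests are given for the other 7. RNA of 25 libraries was sequenced to ask what happens to RNA levels when Fat, a giant cadherin of growth control and planar polarity encoded by ft, is altered. FtICD animals carried ubi-Gal4 and UAS-FtICD-3xFLAG, so that a ubiquitous driver expressed the tagged intracellular domain of Fat; they gave 4 libraries of embryos aged 16 to 20 h, 3 of third-instar imaginal wing discs and 3 of third-instar eye-brain complexes. The ft null animals were ft fd5-5/ft X13, with 3 eye-brain libraries. Wild type was w1118 throughout, with 4 embryo, 3 wing disc and 2 eye-brain libraries set against FtICD, and 3 other eye-brain libraries set against the ft null in a count table of their own. All animals were kept at 25 C. The labels name neither the sex of the animals nor how many were pooled, and nothing in them ties the replicates to separate cultures, so p-values measure the spread between libraries.

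The cascade is a chain of secreted proteases that ends in a ligand and its receptor. In the egg, Nudel (ndl) starts a sequence in which Gastrulation defective (gd) acts on Snake (snk) and Snake acts on Easter (ea). Easter cleaves Spätzle (spz), and cleaved Spätzle activates the receptor Toll (Tl) on the ventral side of the early embryo, long before the stage sampled here. In the immune response Spätzle is cleaved by Spätzle-processing enzyme (SPE), which lies downstream of the protease Persephone (psh). Hayan is a protease of the melanisation response that also acts upstream of Toll. Toll signals through Myd88, Tube and Pelle to the Rel proteins Dorsal and Dif, which are held back by Cactus.

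In each of the 4 mutant comparisons ea was higher than in wild type, 3.15-fold in FtICD embryos, 38.0-fold in FtICD wing discs, 14.7-fold in FtICD eye-brain complexes and 20.3-fold in ft null eye-brain complexes. SPE was lower in FtICD embryos, at 0.185 of the wild-type level, and in FtICD wing discs, at 0.575 of it, and the groups overlapped in both eye-brain comparisons. Among the other 7 genes, Hayan was lower in FtICD embryos and higher in FtICD wing discs, spz was lower in FtICD wing discs, and gd and Tl were higher in ft null eye-brain complexes.

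Library totals ranged from 15016561 to 54256669 counts. Levels are counts per 1000000 library counts (CPM), scaled by TMM within each table. The targeted gene ft was at 1107 to 1489 CPM in FtICD embryos against 24.1 to 35.5 CPM in wild type, and it was higher in every FtICD library of the other tissues too. In the ft null, ft RNA was at 160.4 to 183.3 CPM against 108.4 to 123.6 CPM in wild type, so the RNA level does not check the null label. The markers nub, vg and ap summed to 459 to 498 CPM in FtICD wing discs, 582 to 669 CPM in wild-type wing discs and at most 132 CPM elsewhere. The eye markers ey, so and eya summed to 65.2 to 159 CPM in eye-brain libraries of FtICD and its wild type. In the ft null and its own wild type they summed to 366 to 479 CPM, against at most 30.4 CPM in embryos and wing discs. The eye-brain wild types alone differed, at 65.2 to 70.7 against 422 to 479 CPM. Per the titles, these sets were also run on different instruments. Neuronal markers (elav, nSyb, brp and Syt1) summed to 550 to 800 CPM in the FtICD set and 935 to 1375 CPM in the ft null set. They summed to at most 35.7 CPM in wing discs and to 456 to 589 CPM in embryos. FtICD eye-brain replicate 3 stood apart, with 10183 CPM of salivary gland markers and 5546 CPM of fat body markers, against at most 35.5 and 91.3 CPM in the other 4 libraries of that comparison. In FtICD eye-brain replicate 1 the male-specific lncRNA:roX2 was at 0.161 CPM, against 26.4 to 64.1 CPM in those 4 remaining libraries. These are whole tissues, in which fewer cells of a type and less RNA per cell cannot be told apart.

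In wild type the members spanned a wide range of levels, compared between genes as CPM per kilobase of merged exons. In wild-type embryos SPE was highest at 59.1 ± 3.91 CPM per kb (SD, n = 4), followed by Hayan at 17.5 ± 2.17, spz at 14.5 ± 0.505 and psh at 12.4 ± 1.46 CPM per kb. Tl followed at 7.55 ± 0.520 CPM per kb, ea at 3.49 ± 0.516 and snk at 3.37 ± 0.669 CPM per kb. The library ranges of spz and psh overlapped, as did those of ea and snk. The first genes of the egg sequence were near 0 at this stage, gd at 0.0482 ± 0.0184 and ndl at 0.0448 ± 0.0243 CPM per kb, and these 2 overlapped.

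In wild-type wing discs SPE also led, at 8.82 ± 1.06 CPM per kb (SD, n = 3), ahead of Tl at 5.70 ± 0.455, Hayan at 4.52 ± 0.368 and spz at 2.38 ± 0.118 CPM per kb. There ea stood at 0.528 ± 0.0387 and psh at 0.404 ± 0.145 CPM per kb, with ranges that overlapped. In wild-type eye-brain complexes the order differed. Tl was highest at 12.7 CPM per kb and spz next at 7.85 CPM per kb (n = 2), followed by Hayan at 1.37 CPM per kb. There gd, at 0.776 CPM per kb, overlapped with SPE, at 0.759 CPM per kb, and ea followed at 0.392 CPM per kb. No count of snk was found in the 3 wild-type wing discs or the 2 wild-type eye-brain libraries of this table, against 492 counts over the 4 wild-type embryos.

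**Figure D1:**
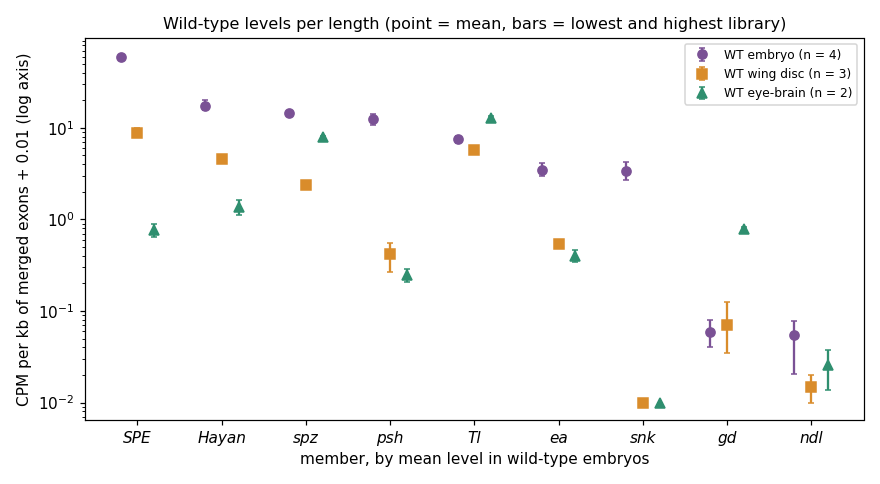
Level of each member per length (CPM per kb of merged exons plus 0.01, log axis) in wild-type embryos, wing discs and eye-brain complexes of the FtICD table; points are means and bars run from the lowest to the highest library. SPE is highest in embryos (59.1) and wing discs (8.82), Tl in eye-brain complexes (12.7), and snk sits at the bottom in wing discs and eye-brain complexes, where it held 0 counts.

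The wild-type tissues were tested in 1 fit of 9 libraries with edgeR's quasi-likelihood F test and Benjamini-Hochberg adjustment over all genes. Embryos were run on a NovaSeq X Plus and the other 2 tissues of this fit on a NovaSeq 6000, per the titles. Tissue and instrument therefore cannot be told apart in the embryo contrasts. The eye-brain libraries of the ft null and its own wild type were run on a NovaSeq X Plus too. Their separate count table was not part of this fit. Embryos against eye-brain complexes called 6 of the 7 members, with 82.2% of all genes called. In that contrast psh had a log2 fold change of 5.89 ± 0.33 (SE; 5.8e-08 as adjusted p), Hayan by 3.88 ± 0.20 (adjusted p = 3.1e-08) and spz by 1.10 ± 0.10 (adjusted p = 2.4e-06), all higher in embryos. Embryos were lower in gd, by -3.77 ± 0.53 (adjusted p = 6.3e-05), and in Tl, by -0.53 ± 0.10 (adjusted p = 6.2e-04).

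Embryos against wing discs called 6 of 7 members as higher, with 87.6% of all genes called and 50.8% called higher. The median log2 fold change of all genes was itself 0.48 in that contrast, against 0.066 for embryos against eye-brain complexes. It was 5.28 ± 0.26 for psh (SE), 2.91 ± 0.10 for spz, 2.25 ± 0.15 for Hayan and 0.70 ± 0.09 for Tl, with adjusted p of 3.4e-05 or below. For ndl, at 39 counts over the embryos and 5 over the discs, it was 3.36 ± 0.92 (adjusted p = 4.6e-03). For snk only a bound is given, at least 109.5-fold higher in embryos than in eye-brain complexes and at least 194-fold higher than in wing discs, taking a floor of 3 counts over the group. Wing discs against eye-brain complexes called 4 of 7 members, with 50.1% of all genes called. Hayan was higher in discs by 1.63 ± 0.19, while gd was lower by -3.81 ± 0.54, spz by -1.81 ± 0.10 and Tl by -1.24 ± 0.11 (log2, SE; adjusted p of 1.7e-04 or below). As a description, ea differed by 3.36 ± 0.29 and SPE by 6.49 ± 0.19 on the log2 scale between embryos and eye-brain complexes, both being higher in embryos.

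Easter, the protease that cleaves Spätzle in the egg, lies on chromosome 3R (FBgn0000533, 15328729 to 15330408, plus strand, dm6), and its exons overlap no other annotated gene. In FtICD embryos ea was at 9.41, 16.2, 19.6 and 20.6 CPM, against 5.71, 6.23, 4.88 and 4.49 CPM in wild-type embryos. In FtICD wing discs it was at 31.3, 35.4 and 25.8 CPM, against 0.860, 0.743 and 0.816 CPM in wild-type discs. In both tissues the lowest FtICD library was above the highest wild-type library. In FtICD eye-brain complexes ea was at 10.6, 7.86 and 8.12 CPM, against 0.688 and 0.508 CPM in wild type. In ft null eye-brain complexes it was at 24.8, 26.3 and 23.1 CPM, against 1.58, 1.11 and 0.935 CPM in their wild type. Here too the groups did not overlap, and gain of the intracellular domain and loss of ft shared the direction in this tissue.

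The log2 fold changes of ea were 1.66 ± 0.22 in FtICD embryos, 5.25 ± 0.18 in FtICD wing discs, 3.88 ± 0.30 in FtICD eye-brain complexes and 4.34 ± 0.18 in the ft null (SE). In FtICD wing discs ea reached 20.2 ± 3.14 CPM per kb (SD, n = 3), above its 3.49 CPM per kb in wild-type embryos. Without FtICD eye-brain replicate 3 the log2 fold change in that tissue was 3.93. These values chose ea and support nothing further. All genes called higher with a log2 fold change of at least 1 made up 6.22%, 3.62%, 2.57% and 3.68% of the genes tested in these 4 comparisons.

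**Figure D2:**
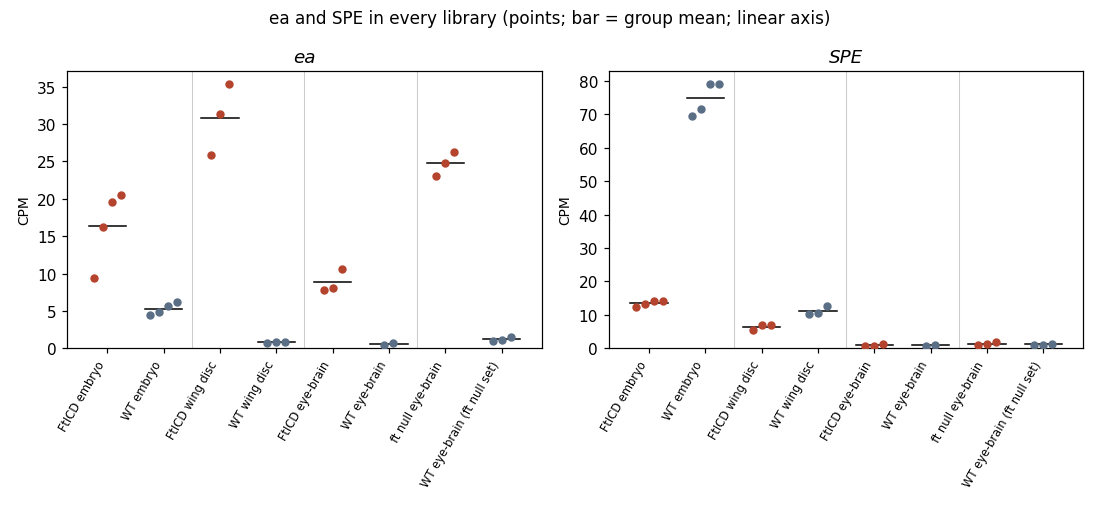
CPM of ea and SPE in each of the 25 libraries (points; linear axes from 0), by genotype and tissue; bars are group means. Every FtICD and ft null library of ea lies above its wild type, from 7.86 to 35.4 CPM, and SPE in FtICD embryos lies between 12.4 and 14.2 CPM, below the 69.6 to 79.1 CPM of wild-type embryos.

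The genes ahead of Easter in the egg were at low levels. Snake, which acts on Easter, was at 3.58, 2.81, 4.37 and 4.18 CPM in FtICD embryos, against 3.82, 4.75, 6.13 and 4.66 CPM in wild-type embryos. The groups overlapped and the log2 fold change of -0.34 ± 0.19 was not called (SE, edgeR adjusted p = 0.17). In wing discs both genotypes held 0 counts of snk. Over the eye-brain libraries snk had 12 counts with FtICD against 0 in wild type, at least 2.20-fold higher by the same floor, and 5 counts in the ft null against 2 in its wild type, a ratio of 2.11 whose exact 95% interval runs from 0.346 to 22.2. Interval and floors cover counting error alone.

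Gastrulation defective, the protease of the sequence that lies on the X chromosome, was found mainly in eye-brain complexes. There gd was at 8.99, 6.24 and 7.02 CPM in the ft null, against 4.67, 4.74 and 3.34 CPM in wild type, and the groups did not overlap. It was called higher, the log2 fold change being 0.79 ± 0.22 (SE; edgeR adjusted p = 0.020). The call was lost without ft null replicate 1 (adjusted p = 0.072), without ft null replicate 3 (0.0545) or without wild-type replicate 3 (0.0588). Of the male-specific RNAs of X-chromosome dosage compensation, lncRNA:roX1 was lower in the ft null by -0.95 (log2, adjusted p = 3.0e-03) and lncRNA:roX2 was not called (-0.03, adjusted p = 0.93); their part in the gd result was not tested. With FtICD, gd was at 2.42, 2.03 and 2.61 CPM against 1.83 and 1.67 CPM in eye-brain wild type, and the log2 fold change of 0.42 ± 0.27 was not called (adjusted p = 0.40). In wing discs gd was at 0.349, 0.173 and 0.351 CPM with FtICD against 0.0555, 0.258 and 0.0927 CPM in wild type and was not called (adjusted p = 0.28). In embryos gd fell under the filter on low counts, with 4 counts over FtICD libraries against 11 over wild type. Nudel never exceeded 0.556 CPM in any library, was tested in embryos alone among the mutant comparisons, and was not called there (-0.21 ± 0.57, adjusted p = 0.77).

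Among the immune proteases, psh and Hayan are neighbours on the X chromosome, 714 bases apart, with Hayan overlapping the antisense RNA asRNA:CR45714 over 872 exonic bases. The kit named in the labels does not mark strand, so reads from these overlapping genes cannot be told apart. Persephone (psh) was at 19.5, 16.2, 18.3 and 21.3 CPM in FtICD embryos, against 20.0, 23.5, 20.4 and 17.7 CPM in wild-type embryos, and was not called (-0.08 ± 0.11, edgeR adjusted p = 0.59). In wing discs psh was at 1.55, 1.41 and 0.866 CPM with FtICD against 0.665, 0.904 and 0.427 CPM in wild type. In FtICD eye-brain complexes it was at 0.484, 0.801 and 0.890 CPM against 0.458 and 0.329 CPM in wild type, without overlap. It was called in none of the 4 mutant comparisons, the other adjusted p being 0.16, 0.34 and 0.62.

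Hayan was lower in FtICD embryos, at 30.9, 28.6, 34.9 and 34.4 CPM against 37.4, 44.5, 48.5 and 38.4 CPM in wild-type embryos. The groups did not overlap, and the log2 fold change was -0.36 ± 0.10 (SE, edgeR adjusted p = 0.013). It was the 1 member called of 6 tested in embryos, where 52.5% of all genes were called. In those embryos lncRNA:roX1 and lncRNA:roX2 were higher by 0.87 and 0.93 (log2), and their part in the Hayan result was not tested. In FtICD wing discs Hayan was higher, at 16.3, 14.6 and 14.2 CPM against 9.90, 11.1 and 11.6 CPM in wild-type discs. That log2 fold change was 0.47 ± 0.12 (adjusted p = 0.044), and the call was lost when any 1 of the 6 libraries was left out (adjusted p 0.057 to 0.141). There lncRNA:roX1 (0.46, adjusted p = 0.61) and lncRNA:roX2 (1.20, adjusted p = 0.30) were not called, but both varied widely between libraries. In FtICD discs roX1 was at 136 to 417 CPM and roX2 at 8.58 to 51.0 CPM. In wild-type discs they were at 96.2 to 345 CPM and 5.92 to 22.7 CPM. Their part in the wing disc values of Hayan was not tested. Hayan and spz were the 2 members called of 5 tested in wing discs, where 17.6% of all genes were called. In FtICD eye-brain complexes Hayan was at 5.01, 5.61 and 4.25 CPM against 3.93 and 2.69 CPM, and was not called (0.58 ± 0.27, adjusted p = 0.28).

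Spätzle-processing enzyme lies on chromosome 3R (FBgn0039102, 23686255 to 23688147, plus strand, dm6), and 107 of its exonic bases overlap CG18754 on the same strand. In FtICD embryos SPE was at 13.4, 14.2, 14.01 and 12.4 CPM, against 69.6, 79.1, 79.0 and 71.7 CPM in wild-type embryos. Each FtICD library lay far below each wild-type library, with little spread in either group, and the log2 fold change was -2.44 ± 0.08 (SE). In FtICD wing discs SPE was at 6.89, 5.39 and 7.02 CPM, against 10.4, 10.4 and 12.7 CPM in wild-type discs, again without overlap, with a log2 fold change of -0.80 ± 0.16. In FtICD eye-brain complexes it was at 0.807, 0.846 and 1.36 CPM, against 1.12 and 0.807 CPM in wild type, and in the ft null at 1.28, 1.81 and 0.975 CPM, against 1.01, 1.11 and 1.34 CPM. The groups overlapped in both, with log2 fold changes of 0.06 ± 0.42 and 0.23 ± 0.33. The direction in FtICD eye-brain complexes turned without FtICD replicate 3 (-0.23) or wild-type replicate 2 (-0.16), and that in the ft null without ft null replicate 2 (-0.03). Of all genes tested, 4.90% in embryos and 6.31% in wing discs were called lower with a log2 fold change of -1 or less. In wing discs SPE, at -0.80, did not reach that size.

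Marker sums of several cell types moved in embryos, those of blood cells and crystal cells among them. The 3 crystal cell markers lz, PPO1 and PPO2 summed to 93.0 to 188 CPM in FtICD embryos against 469 to 554 CPM in wild-type embryos, with both tested markers, PPO1 and PPO2, called lower. The 6 haemocyte markers summed to 160 to 178 CPM against 137 to 143 CPM, 4 of 6 being called higher. Of all genes tested in embryos, 26.7% were called higher and 25.8% lower. Ribosomal RNA made up 12.7 ± 1.70% of the counts of FtICD embryos and 4.50 ± 0.766% of those of wild-type embryos (SD, n = 4 each). The part of these in the embryo values of SPE and Hayan was not tested.

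The ligand gene spz, on chromosome 3R, changed in wing discs. It was at 1.72, 2.03 and 3.02 CPM in FtICD wing discs, against 5.32, 5.65 and 5.88 CPM in wild-type discs. The groups did not overlap, and the log2 fold change of -1.32 ± 0.25 was called (SE, edgeR adjusted p = 0.013). Without FtICD wing disc replicate 2 the adjusted p was 0.0561, with a log2 fold change of -1.25. Fat body markers summed to 85.2 to 1089 CPM in FtICD discs against 36.0 to 104 CPM in wild-type discs. Lower sums without overlap were those of trachea (883 to 1295 against 1634 to 1695 CPM) and wing disc markers (459 to 498 against 582 to 669 CPM). So were those of salivary gland (3.10 to 23.4 against 32.1 to 62.9 CPM) and crystal cell markers (38.7 to 59.5 against 70.7 to 219 CPM). The other marker sums overlapped, and the part of all these was not tested. In embryos spz was at 37.1, 31.1, 27.9 and 24.9 CPM with FtICD against 36.1, 33.6, 34.0 and 33.8 CPM in wild type, and the change of -0.14 ± 0.12 was not called (adjusted p = 0.33). Without FtICD embryo replicate 1 it was -0.28 (adjusted p = 0.0235). In eye-brain complexes spz was at 19.1, 19.2 and 16.5 CPM with FtICD against 19.1 and 18.1 CPM in wild type, and was not called (-0.03 ± 0.13, adjusted p = 0.90). In the ft null it was at 16.8, 17.3 and 16.9 CPM against 16.3, 12.1 and 16.2 CPM, without overlap, and was not called either (0.19 ± 0.13, adjusted p = 0.25).

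The receptor gene Tl, 222586 bases from spz, was higher in the ft null, at 169.9, 183.8 and 190.8 CPM against 128.8, 121.9 and 132.1 CPM in wild type. The groups did not overlap, and the log2 fold change was 0.50 ± 0.06 (SE, edgeR adjusted p = 6.1e-04), called also with any 1 library left out. Tl and gd were the 2 members called of 5 tested, both higher, where 44.5% of all genes were called and 23.5% were called higher. Haemocyte markers summed to 361 to 461 CPM in the ft null against 127 to 148 CPM in wild type, with 6 of 6 called higher, and the neuronal markers were lower, at 935 to 963 CPM against 1284 to 1375 CPM. Trachea (1243 to 1326 against 709 to 793 CPM) and crystal cell sums (360 to 582 against 151 to 241 CPM) were also higher without overlap. Salivary gland (3.22 to 11.4 against 23.3 to 57.6 CPM) and fat body sums (52.9 to 63.5 against 64.8 to 360 CPM) were lower. So were those of wing disc (85.2 to 101 against 116 to 132 CPM) and eye markers (366 to 389 against 422 to 479 CPM). Muscle sums overlapped, and the part of all these in the Tl result was not tested. With FtICD, Tl was at 25.1, 24.8 and 24.7 CPM in wing discs against 27.9, 28.6 and 32.3 CPM in wild type. These groups did not overlap, but the change of -0.26 ± 0.09 was not called (adjusted p = 0.094). In embryos (-0.01 ± 0.08, adjusted p = 0.95) and in FtICD eye-brain complexes (-0.07 ± 0.11, adjusted p = 0.74) Tl was not called either. None of the 5 members tested in FtICD eye-brain complexes was called by edgeR, 0 had an unadjusted p under 0.05 and DESeq2 called 0, where 4.22% of all genes were called.

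**Figure D3:**
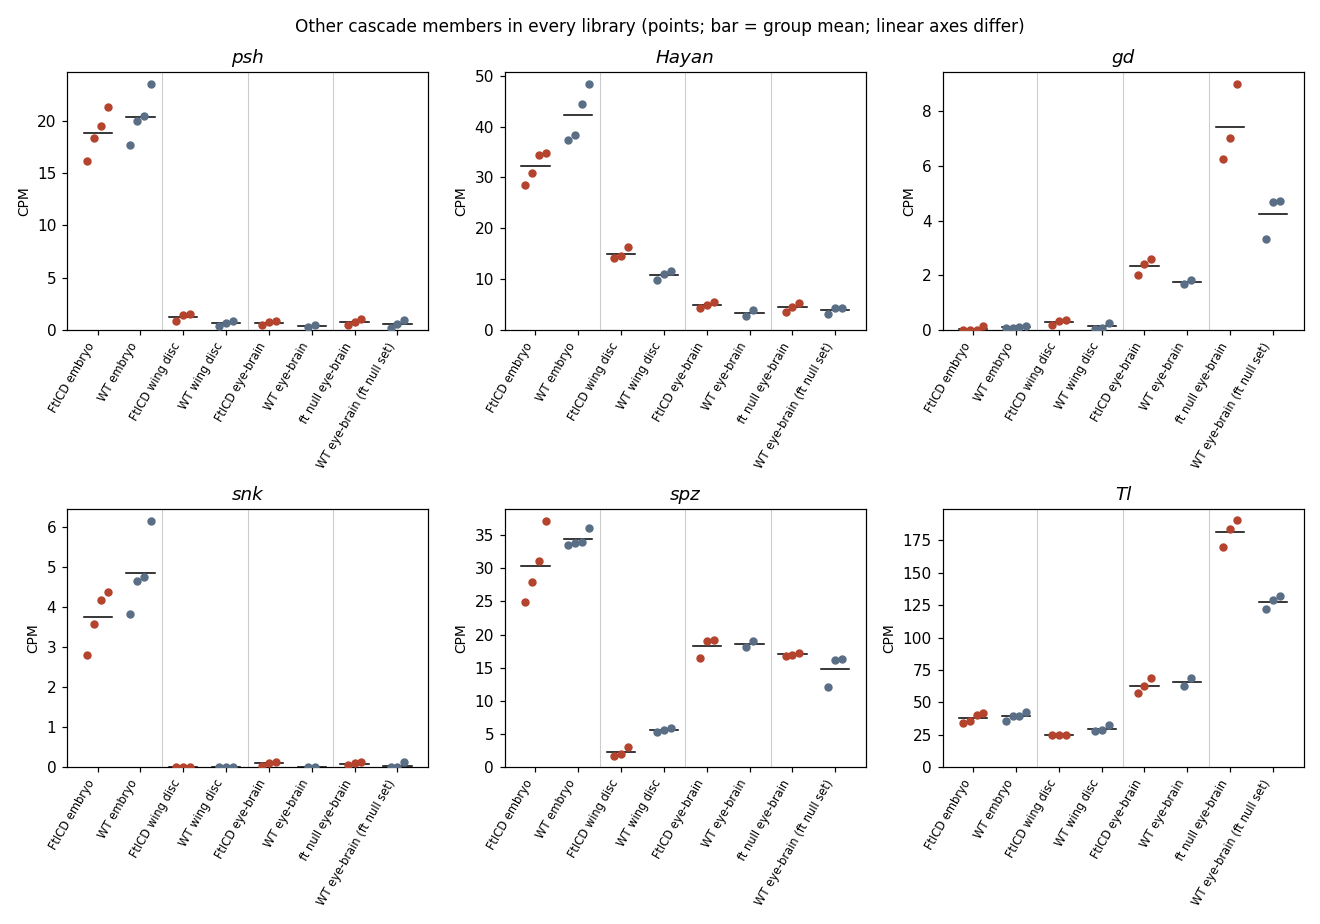
CPM of psh, Hayan, gd, snk, spz and Tl in each of the 25 libraries (points; linear axes from 0 that differ between genes), by genotype and tissue; bars are group means. Hayan is lower in FtICD embryos (28.6 to 34.9 CPM) than in wild type (37.4 to 48.5), spz is lower in FtICD wing discs, and Tl is higher in the ft null (169.9 to 190.8 CPM) than in its wild type (121.9 to 132.1).

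Counted by groups that did not overlap, 1 of 6 tested members was lower in FtICD embryos, 1 of 5 was higher and 2 were lower in FtICD wing discs, 3 of 5 were higher in FtICD eye-brain complexes (gd, psh and Hayan) and 3 of 5 were higher in the ft null (gd, spz and Tl). Of all genes tested, the groups did not overlap, with the mutant higher, for 22.4% in embryos, 19.7% in wing discs, 24.5% in FtICD eye-brain complexes and 30.6% in the ft null. With the mutant lower the shares were 25.9%, 19.5%, 21.3% and 25.9%.

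Whether the FtICD effect differed between tissues was tested as an interaction in 1 fit of 19 libraries. The effect on Hayan in wing discs minus that in embryos was 0.86 ± 0.20 (log2, SE, edgeR adjusted p = 4.3e-03), and in eye-brain complexes minus embryos 0.94 ± 0.22 (adjusted p = 4.9e-03). The effect on spz in wing discs minus embryos was -1.13 ± 0.23 (adjusted p = 1.7e-03), and in eye-brain complexes minus wing discs 1.26 ± 0.26 (adjusted p = 3.2e-03). The effect on psh in wing discs minus embryos was 1.08 ± 0.36 (adjusted p = 0.033), a call that was lost with the replicate block (0.0545) and when any 1 of 8 libraries was left out (0.0521 to 0.102). These calls numbered 3 of 7 members for wing discs minus embryos, 2 of 7 with snk for eye-brain complexes minus embryos and 1 of 7 for eye-brain complexes minus wing discs, where 27.7%, 28.2% and 12.0% of all genes were called. As descriptions, ea and SPE had differences of 3.63 ± 0.34 and 1.67 ± 0.21 between wing discs and embryos. The ft null and FtICD tables were not tested against each other.

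The lists of Toll-related genes are read against all genes tested, of which 26.7% were called higher and 25.8% lower in FtICD embryos, 7.67% higher and 9.97% lower in FtICD wing discs, and 23.5% higher and 21.0% lower in the ft null.

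Inside the cell, 3 of the 9 genes of Toll signal transduction were called in FtICD embryos, 3 in FtICD wing discs and 5 in the ft null, beside 52.5%, 17.6% and 44.5% of all genes. In FtICD embryos 2 were called higher, wek, an adaptor that binds Toll, by 0.56 ± 0.10 and dl, the gene of Dorsal, by 0.39 ± 0.06, and pll, of the kinase Pelle, was lower by -0.51 ± 0.12 (log2, SE, edgeR adjusted p of 3.7e-03 or below). With FtICD, 3 were higher in wing discs, wek by 0.50 ± 0.10, dl by 0.43 ± 0.10 and the adaptor gene Myd88 by 0.29 ± 0.07. In the ft null 4 of 9 were higher, among them dl at 66.5 ± 4.84 CPM against 41.6 ± 1.22 CPM in wild type (SD, n = 3 each), Myd88 and pll, while Pli was lower by -0.38 ± 0.08. The medians of the 9 log2 fold changes were 0.03, 0.11 and 0.18 in these comparisons, beside a median of all genes of 0.01 in FtICD wing discs and closer to 0 in the others.

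Upstream of the cascade, the 10 genes of pathogen recognition and first proteases were called in 4 of 8 tested in FtICD embryos, 2 of 6 in FtICD wing discs and 6 of 6 in the ft null, beside 52.5%, 17.6% and 44.5% of all genes. All 4 called in FtICD embryos were lower. They were PGRP-SD, a peptidoglycan recognition protein, at 1.31 ± 0.194 CPM against 4.19 ± 0.694 CPM in wild type, GNBP3, a recognition protein for fungal glucans, at 1.70 ± 0.520 against 4.03 ± 0.439 CPM, spheroide and spirit (SD, n = 4 each; adjusted p of 2.1e-03 or below). Wing discs with FtICD had PGRP-SA higher by 2.12 ± 0.35 and spirit lower by -2.22 ± 0.46 (log2, SE), 1 each of 6 tested. Of 6 tested in the ft null, 5 were higher and spirit was lower by -0.89 ± 0.22. The higher genes included GNBP1 at 61.2 ± 6.51 CPM against 28.7 ± 0.481 CPM, GNBP3 at 125 against 74.8 CPM, and modSP, the modular protease at the top of the immune cascade, at 34.5 against 18.9 CPM. The list's median was -0.50 in FtICD embryos, -0.11 in FtICD wing discs and 0.80 in the ft null.

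The serpins inhibit such proteases. They were called in 3 of 6 tested in FtICD embryos, 1 of 5 in FtICD wing discs and 4 of 6 in the ft null, where all genes gave 52.5%, 17.6% and 44.5%. In FtICD embryos nec, of Necrotic, was lower by -0.79 ± 0.16, Spn88Ea lower by -0.80 ± 0.16 and Spn77Ba higher by 0.54 ± 0.11, 3 of 6 tested (log2, SE, edgeR adjusted p of 1.9e-03 or below). Wing discs with FtICD had more Spn28Dc, which restrains melanisation, at 18.3 ± 3.10 CPM against 5.11 ± 0.871 CPM in wild type (SD, n = 3 each), 1 of 5 tested. Of 6 tested in the ft null, 4 were higher, among them Spn27A, the serpin that inhibits Easter in the embryo, at 347 ± 13.2 CPM against 176 ± 4.57 CPM in wild type (SD, n = 3 each; log2 fold change 0.97 ± 0.06, SE, adjusted p = 3.7e-05). Spn27A was not called in the FtICD comparisons.

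Melanisation genes were called in 3 of 4 tested in FtICD embryos and 3 of 5 in the ft null, where all genes gave 52.5% and 44.5%. The list's median log2 fold change was -0.95 in FtICD embryos, -0.35 in FtICD wing discs, 0.43 in FtICD eye-brain complexes and 0.87 in the ft null. Those lower in FtICD embryos were the prophenoloxidase genes PPO2, at 104 ± 28.1 CPM against 386 ± 25.8 CPM, and PPO1, at 43.4 ± 12.6 CPM against 132 ± 13.2 CPM, and the protease gene MP1, at 22.5 ± 1.61 against 29.0 ± 1.09 CPM (SD, n = 4 each). In the ft null 3 of 5 were higher, PPO1 by 2.02 ± 0.29, PPO2 by 1.52 ± 0.25 and PPO3 by 0.87 ± 0.19 (log2, SE, adjusted p of 8.6e-03 or below). In wing discs with FtICD, edgeR called 0 of 5, with 2 at an unadjusted p under 0.05 and 2 called by DESeq2. Of all genes there, DESeq2 called 2251 and edgeR 1661. There PPO1 was at 14.8 against 39.7 CPM and PPO2 at 32.9 against 84.3 CPM. PPO1 and PPO2 are also 2 of the 3 crystal cell markers, whose sum was 360 to 582 CPM in the ft null against 151 to 241 CPM in wild type, beside the higher haemocyte markers there. The remaining crystal cell marker, lz, was called lower in the ft null. The part of blood cells in the melanisation, recognition and serpin values was not tested.

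Of the other Toll-family receptors and Spätzle-type ligands, Toll-7 was higher in FtICD embryos, at 90.0 ± 1.99 CPM against 38.0 ± 3.13 CPM in wild type (SD, n = 4 each; log2 fold change 1.28 ± 0.07, SE, adjusted p = 7.9e-07). Toll-9 and Tehao were also called higher there, making 3 of 11 tested, beside 26.7% of all genes. Of 9 tested in wing discs, 3 were lower with FtICD (all genes 9.97%), 18w by -2.16 ± 0.38, Toll-7 by -0.78 ± 0.15 and Toll-9, which was at 0.0165 CPM against 0.655 CPM. In the ft null 5 of 9 were higher (all genes 23.5%), among them Toll-7 by 0.86 ± 0.08 and the ligand gene spz3 by 0.99 ± 0.13, and 2 were lower, Toll-6 by -0.56 ± 0.06 and NT1 by -0.70 ± 0.15 (log2, SE).

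The genes that Toll switches on in immunity were barely detected in the larval tissues, so that 0, 3 and 1 of the 16 could be tested in FtICD wing discs, FtICD eye-brain complexes and the ft null. In FtICD embryos 9 were tested. Drs, the antifungal peptide Drosomycin, was higher at 3.19 ± 1.51 CPM against 0.290 ± 0.153 CPM in wild type (SD, n = 4 each; log2 fold change 3.50 ± 0.47, SE, edgeR adjusted p = 1.3e-04). BomBc2 was higher by 0.80 ± 0.28, Dso1 was lower by -1.01 ± 0.35, and the list's median was -0.20; 3 of 9 were called, beside 52.5% of all genes. Of 6 Dorsal targets of the early embryo, brk was lower by -1.04 ± 0.20 and rho by -0.34 ± 0.11 in FtICD embryos, 2 of 5 tested, beside 25.8% of all genes called lower, while in the ft null 4 of 5 were called, beside 44.5% of all genes: sog was higher, at 99.4 ± 2.16 against 49.5 ± 1.40 CPM (SD, n = 3 each), brk by 0.83 ± 0.06 and sna by 0.26 ± 0.08, with rho lower by -0.21 ± 0.07. Of the 3 eggshell genes, 1 was called in FtICD embryos and 2 each in FtICD wing discs and the ft null, all lower. The shares of all genes called lower were 25.8%, 9.97% and 21.0% in these comparisons. The gene pip, whose product marks the ventral side of the egg, was lower in FtICD embryos (-0.35 ± 0.10), FtICD wing discs (-0.91 ± 0.25) and the ft null (-0.44 ± 0.13), and wbl was lower in FtICD wing discs, at 38.8 ± 5.77 against 77.2 ± 8.13 CPM (SD, n = 3 each), and in the ft null (-1.14 ± 0.36).

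In FtICD eye-brain complexes edgeR called 0 genes of all 8 lists, where only 4.22% of all genes tested were called. At an unadjusted p under 0.05 there were 2 recognition genes, 2 serpins, 1 melanisation gene, 2 receptors or ligands and 1 antimicrobial gene. DESeq2 called 2, 1, 0, 2 and 0 of these lists, beside 1837 of all genes, where edgeR called 458. The share of all genes at an unadjusted p under 0.05 was not counted, so these counts are descriptions. PGRP-SA was at 9.54 ± 5.82 CPM (SD, n = 3) against 1.98 ± 0.396 CPM (SD, n = 2), with adjusted p = 0.11, and Spn28Dc at 7.02 ± 1.54 against 2.72 ± 0.251 CPM, with adjusted p = 0.064.

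**Figure D4:**
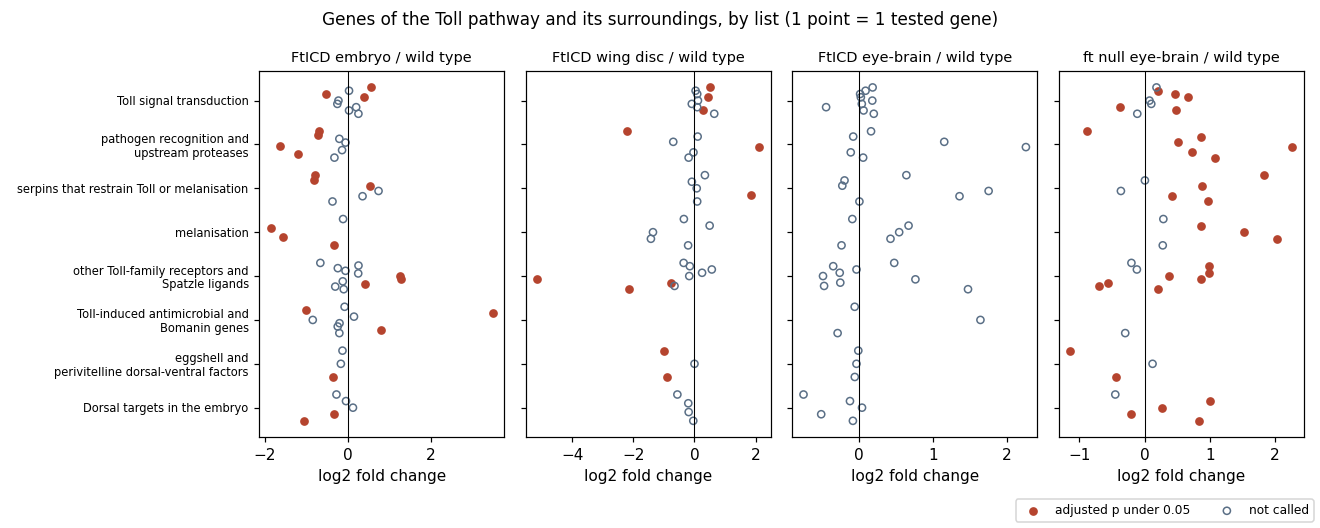
Log2 fold change (mutant over wild type) of every tested gene of the 8 Toll-related lists in the 4 comparisons; filled points have an edgeR adjusted p under 0.05 and open points do not. Melanisation genes lie left of 0 in FtICD embryos (median -0.95) and right of 0 in the ft null (median 0.87), and no point is filled in FtICD eye-brain complexes.

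The genes beside ea did not share its change. Its 5 nearest genes on each side, all within 10443 bases, had log2 fold changes from -0.21 to 0.40 in FtICD wing discs (8 tested), from -0.12 to 0.32 in FtICD eye-brain complexes (8 tested) and from -0.45 to 0.33 in the ft null (8 tested). In FtICD embryos the 9 tested ranged from -1.08 to 0.37, with 6 called lower and 2 higher, beside 25.8% and 26.7% of all genes. In FtICD wing discs 2 were called higher, beside 7.67% of all genes. In the ft null 2 were higher and 1 lower, beside 23.5% and 21.0%. None was called in FtICD eye-brain complexes, where 4.22% of all genes were. The neighbours of SPE lay between -2.19 and 2.73 in FtICD embryos (6 tested, 3 called lower and 1 higher). They lay between -1.13 and 3.07 in FtICD wing discs (4 tested, 1 higher) and between -1.51 and 3.83 in FtICD eye-brain complexes (8 tested, 1 higher). In the ft null they lay between -1.85 and 3.41 (7 tested, 2 higher and 1 lower). Among them GILT3, 7833 bases away, was higher in all 4 comparisons, by 2.73 ± 0.18 in FtICD embryos, 3.07 ± 0.69 in FtICD wing discs, 3.83 ± 0.26 in FtICD eye-brain complexes and 3.41 ± 0.31 in the ft null (SE, adjusted p of 0.022 or below). CG18754, which shares exonic bases with SPE, was lower in FtICD embryos, at 0.179 CPM against 0.866 CPM in wild type (adjusted p = 9.0e-04).

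**Figure D5:**
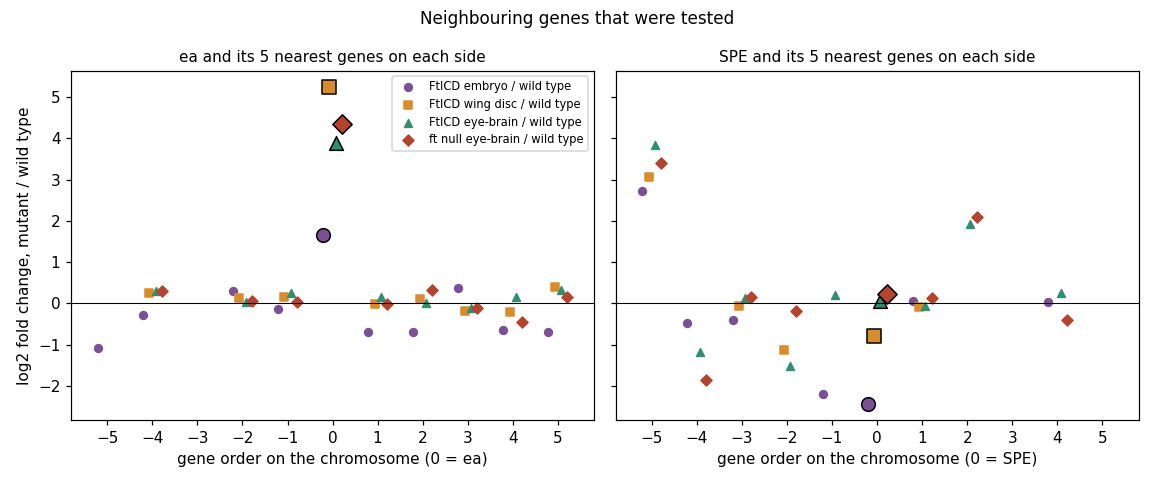
Log2 fold change (mutant over wild type) of ea and SPE (large outlined symbols at 0) and of their 5 nearest genes on each side, by order along the chromosome, in the 4 comparisons; only tested genes are drawn. The neighbours of ea lie between -1.08 and 0.40, while GILT3, the leftmost neighbour of SPE, lies between 2.73 and 3.83.

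The genes whose pattern was most like that of ea or SPE were ranked by Pearson's r of log2(CPM + 0.5), centred on the wild type of the same set, over the 25 libraries, among the 10570 genes that averaged 1 CPM or more. This is a description, and the libraries of a group share a genotype, a tissue and a count table. For ea the closest were CG2641 (r = 0.973), Cyp6t3 (r = 0.970), CR44383 (r = 0.970), CG4098 (r = 0.967) and Cyp6d2 (r = 0.961). Cyp6t3, a cytochrome P450 gene, differed by log2 fold changes of 3.48 in FtICD embryos, 6.37 in FtICD wing discs, 4.70 in FtICD eye-brain complexes and 4.70 in the ft null. CR44383 was at 1.71 to 13.4 CPM in FtICD libraries, against 0 CPM in their wild types. It was at 6.55 to 8.78 CPM in the ft null, against at most 0.0631 CPM in its wild type. The part of other genetic differences from w1118 in these values and in those of ea was not tested. For SPE the closest were Ost48 (r = 0.968), CG7215 (r = 0.957), Spase25 (r = 0.957), a gene named after a lethal mutation (r = 0.955) and CG1434 (r = 0.953). In FtICD embryos Ost48, of a subunit of the oligosaccharyl transferase, differed by -0.79, Spase25, of the signal peptidase complex, by -0.74 and CG1434 by -1.06 on the log2 scale. CG7215 was at 0 CPM in all 4 FtICD embryo libraries, against 5.05 to 7.40 CPM in wild-type embryos.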

How the data were processed

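RNA-seq gene counts of 25 libraries were used, in 2 tables that the authors deposited, whose unit is the expected count per gene, not scaled for depth; of nonzero values, 34.0% (FtICD) and 24.6% (ft null) were not whole (tolerance 1e-06), and all were rounded to whole counts. Salmon 1.80, Trimmomatic 0.33, FastQC 0.10, edgeR and the build dm6 are named in the submitters' processing notes, without settings. Per the labels' protocols, cDNA was made from 10 ng of RNA with the SMARTer kit and read as pairs of 150 bases.

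Groups came from the labels. Each mutant was fitted against wild type of its own tissue and table; wild-type tissues and interactions used 1 fit each. In R 4.3.3, edgeR 4.0.16 applied filterByExpr (minimum count 10), TMM scaling and its two-sided quasi-likelihood F test, with Benjamini-Hochberg adjustment over all genes tested and a threshold of 0.05, in 10 comparisons without a replicate block. DESeq2 1.42.0, RLE scaling, no filter, a replicate block and leaving out each library were alternatives. CPM uses 1 set of TMM factors per table, while fits use those of their own libraries. The 2 differ slightly in the mutant comparisons and more in the embryo contrasts of wild-type tissues. There Tl was 1.63-fold higher in embryos than in wing discs by the fit and 1.32-fold by mean CPM. The procedure was tested on simulated data.

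Replicate numbers were not taken to pair libraries, since same-numbered deviations did not all correlate above 0.1. Positions and exon lengths are from Ensembl release 115 (BDGP6.54, the dm6 sequence), which places 17083 of 17208 genes. Bomanin and Daisho genes were matched through older symbols. The members and the lists were chosen with earlier results of these data known, so their counts are descriptions; no set test was run. Named were all members, per list and comparison up to 3 called genes, taken by adjusted p, or else up to 2 of highest level. Also named were the 5 nearest genes by pattern for ea and SPE, and ft, roX1 and roX2. The nearest genes by position are given as ranges, and only GILT3 and CG18754 of them were named. Other list genes were named after their values were seen. No sequence is printed, and none was analysed here.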

Additional observations from a re-analysis of the deposited data

Results flagged for a closer look

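In wild-type embryos 1 library of spz stood apart from the others, at 36.1 CPM against 33.6 to 34.0 CPM in the other 3; about 1 in 20 groups would give such a gap. The FtICD effect differed between tissues for 4 members by the interaction test (edgeR quasi-likelihood F test, Benjamini-Hochberg adjustment over all genes). For Hayan it was higher in wing discs than in embryos by 0.86 ± 0.20 (log2, SE, adjusted p = 4.3e-03) and in eye-brain complexes than in embryos by 0.94 ± 0.22 (adjusted p = 4.9e-03; 0.059 without wild-type eye-brain replicate 2). For spz it was lower in wing discs than in embryos by -1.13 ± 0.23 (adjusted p = 1.7e-03) and higher in eye-brain complexes than in wing discs by 1.26 ± 0.26 (adjusted p = 3.2e-03). For psh it was higher in wing discs than in embryos by 1.08 ± 0.36 (adjusted p = 0.033; 0.0545 with the replicate block, and 0.0521 to 0.102 when any 1 of 8 libraries was left out). For snk the effect in eye-brain complexes differed from that in embryos (adjusted p = 5.5e-03), on 12 counts over 3 FtICD eye-brain libraries against 0 over 2 wild-type libraries, so no fold is given; without wild-type eye-brain replicate 2 snk was not called.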

How the results depend on the processing

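In FtICD wing discs the count of members called, 2 in the values above, was 1 without a filter on low counts and 1 with the replicate block, and 0 to 1 with a library left out. The genes called there ranged from 872 to 1561 with a library left out. In FtICD eye-brain complexes 458 genes were called, against 1837 by DESeq2, 1284 with the replicate block and 8 to 865 with a library left out. Members called ranged from 1 to 2 in embryos and 1 to 2 in the ft null with a library left out, and in the eye-brain minus embryo interaction from 0 to 3, with 1931 to 3713 genes called. The cause was not tested.

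Signs turned for small values. With the replicate block, SPE was at -0.22 and spz at 0.0298 in FtICD eye-brain complexes (log2), and without a filter gd was at -0.0184 between wild-type embryos and wing discs. With a library left out, ndl ranged from -0.55 to 0.0951 in FtICD embryos, from -2.39 to 0.47 between wild-type discs and eye-brain complexes, from -0.98 to 1.83 in the eye-brain minus embryo and from -1.92 to 0.89 in the eye-brain minus wing disc interaction. Tl ranged from -0.0596 to 0.0392 in FtICD embryos, from -0.134 to 0.00325 in FtICD eye-brain complexes and from -0.12 to 0.0226 in the eye-brain minus embryo interaction. SPE ranged from -0.23 to 0.32 in FtICD eye-brain complexes and from -0.0319 to 0.43 in the ft null, and spz from -0.0754 to 0.0331 in FtICD eye-brain complexes. The range of psh was -0.0141 to 0.89 in the ft null and -0.42 to 0.13 in the eye-brain minus wing disc interaction, where that of Hayan was -0.17 to 0.39, and gd ranged from -0.29 to 0.76 between wild-type embryos and wing discs.

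The psh interaction was lost with the replicate block (adjusted p = 0.0545) and when any 1 of 8 libraries was left out (adjusted p 0.0521 to 0.102). The gd interactions were called without FtICD embryo replicate 3 (adjusted p = 3.8e-03 for wing discs minus embryos and 8.5e-03 for eye-brain complexes minus embryos), which holds all gd counts of its group. With the block 5791 genes were called in embryos, 1139 in wing discs and 3262 in the ft null. RLE scaling gave medians of all genes of 0.28 for wild-type embryos against eye-brain complexes and 0.61 against wing discs, and no member changed its call. Low counts of gd, ndl and snk limit what can be seen of them.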
